A study of Homo sapiens with 6 samples.

Results

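The matrix metalloproteinases (MMPs), the ADAM and ADAMTS metalloproteinases and their tissue inhibitors (TIMPs) were examined in Caki2 cells with and without PBRM1. Members were matched by gene symbol, and the families were chosen with earlier results of these data known. Of the 25369 annotated genes, 67 matched: 22 MMP, 22 ADAM, 19 ADAMTS and 4 TIMP genes. That is 63 genes named as proteases and 4 inhibitors. Caki2 is an established human kidney cancer line, used as a model of clear cell renal cell carcinoma (ccRCC) that has lost PBRM1 protein. PBRM1 is a bromodomain subunit specific to the PBAF chromatin remodeling complex. Caki2+Vector (n = 3) carried an empty vector, and Caki2+PBRM1 (n = 3) carried PBRM1 in a lentivirus under a promoter that doxycycline switches on. Both groups received doxycycline at 2 µg/ml, and both were drug-selected lines that had been infected with virus. Whether either line was a single clone was not stated in the sources used here. The authors call the samples biological replicates, but neither they nor the labels say that replicates A, B and C were separate cultures. The p-values thus measure only the spread between these samples.

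These enzymes belong to the metzincins, proteases with a zinc ion in the active site. MMPs are made as inactive proenzymes and cleave collagens, other matrix proteins, growth factors and cell surface proteins. ADAMs are mostly membrane-bound and release the outer parts of growth factors, cytokines and receptors, a step called shedding, whereas ADAMTS enzymes are secreted and cleave procollagens, proteoglycans and von Willebrand factor. TIMPs bind the active site, and the 4 of them differ in which MMPs, ADAMs and ADAMTSs they block. In the kidney, these proteases act in the turnover of the basement membrane and in injury and fibrosis. Activity is also set by proenzyme cleavage and inhibitor binding, which RNA levels do not measure.

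Values are normalized read counts, that is reads on a gene divided by a size factor for the sample. Between 7312955 and 10835355 reads fell on genes per sample. PBRM1 itself was 195, 182.3 and 182.2 in Caki2+Vector and 2432, 2521 and 2682 in Caki2+PBRM1. This 13.64-fold difference lay in the direction the labels give. The authors report that Caki2 keeps PBRM1 mRNA and lacks the protein because of a deletion in the gene. The counts in Caki2+Vector thus do not stand for PBRM1 protein. Of 8 markers of renal tubular epithelium and ccRCC, 7 reached a count of 10 in 3 samples, and the hypoxia-regulated carbonic anhydrase CA9 was at 0 to 2.8 in Caki2+Vector and at 6.7 to 15.2 in Caki2+PBRM1. The summed renal markers ranged from 29802.1 to 30625.6 in Caki2+Vector and from 31526.4 to 32365.2 in Caki2+PBRM1, but single markers went both ways: the kidney cadherin CDH6 (log2 fold change 1.12) and vimentin (VIM, 0.18) were higher in Caki2+PBRM1, and the epithelial keratins KRT8 (-0.18) and KRT18 (-0.34) were lower, all past the test described next. The part of these shifts in the results was not tested. Endothelial markers summed to at most 2.7 in any sample with CDH5 at 0, fibroblast markers to at most 16.9, and among leukocyte markers CD3E was at 0. The leukocyte marker PTPRC had 6, 4 and 4 reads in Caki2+Vector and 1, 1 and 0 in Caki2+PBRM1, too few to be tested. The leukocyte sum of 1997.5 to 2143.7 and 1897.6 to 1935.9 came almost wholly from CD68, a lysosomal protein that non-immune cells also make. Caki2+Vector A stood somewhat apart from its replicates, with a chi-square per degree of freedom over gene counts of 3.091 and 2.839 against Caki2+Vector B and C, compared with 1.188 to 1.339 for the other replicate pairs. Without it, 9 members were higher and 3 lower in place of the 10 and 4 given next, and the calls lost were those of ADAMTS2 and ADAM11. In bulk RNA, fewer cells of a type and less RNA per cell cannot be told apart.

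Transcription of the families was concentrated in few genes. Of the 67 members, 10 were at 0 in every sample (ADAM2, ADAM5, ADAM6, ADAM18, ADAM30, ADAM33, MMP3, MMP8, MMP12 and MMP27), and 24 more had reads but fewer than the 10 normalized counts in 3 samples that a test required. ADAM5 and ADAM6 are annotated as a pseudogene and as non-coding, so they are counted here by name only. The remaining 33 members were tested with limma, and 14 of them (42.4%) passed an adjusted p of 0.05, against 29.2% of the 13303 genes tested. PBRM1 re-expression went with higher counts of 10 members and lower counts of 4, and the corresponding shares of all genes tested were 16.2% and 13.0%. With edgeR on the recovered reads the same numbers passed, 10 and 4, against 30.1% of all genes (16.4% higher and 13.7% lower). With DESeq2, 8 members were higher and 1 was lower, against 18.9% of all genes (11.2% and 7.77%). The 3 samples of one group did not overlap with those of the other for 18 of the 33 members (54.5%), against 41.7% of all genes tested. The median log2 fold change, given throughout as Caki2+PBRM1 minus Caki2+Vector, was 0.02 over the members and -0.004 over all genes. The genes that passed thus lay in both directions, with more of them higher (10) than lower (4). Among the calls kept under every alternative setting given below, 8 were higher and 1 was lower. All 3 MMPs that passed and the single TIMP were higher, and each of the ADAM and ADAMTS families had 3 genes that were higher and 2 that were lower.

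**Figure D1:**
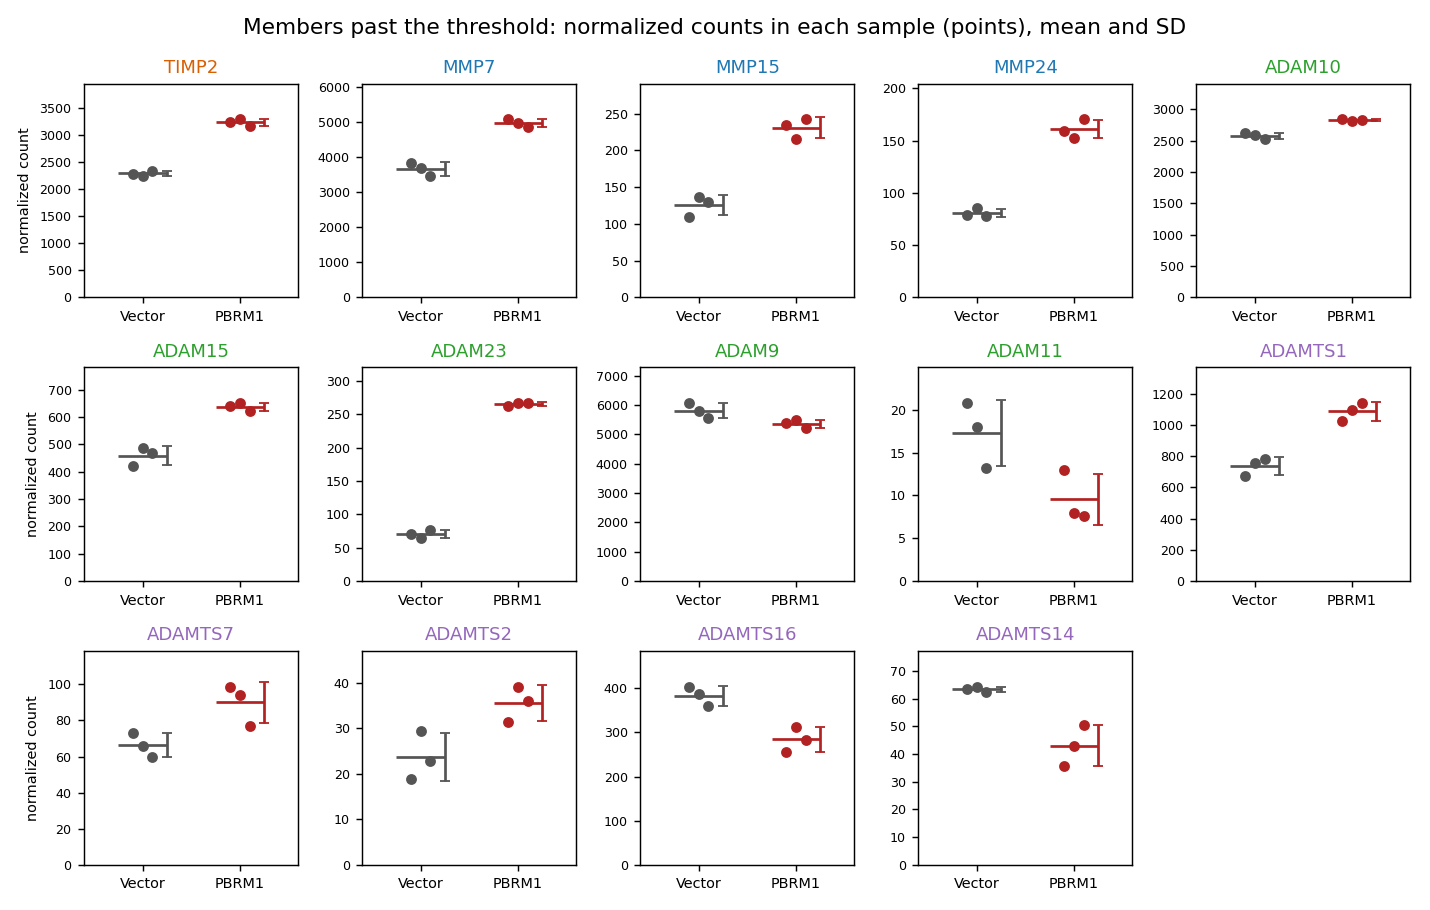
Normalized read counts (linear axes that start at 0) of the 14 members that passed the test, with 1 point per sample, a line at each group's mean and an error bar of 1 SD (n = 3 per group). ADAM23 shows the largest fold difference, from 64.2 to 76.7 in Caki2+Vector and from 262.1 to 266.9 in Caki2+PBRM1.

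Of the 3 inhibitors with enough counts to be tested, TIMP2 alone passed. TIMP2, which blocks most MMPs and also takes part in the activation of proMMP2 on the cell surface, had normalized counts of 2287, 2245 and 2341 in Caki2+Vector and 3247, 3296 and 3168 in Caki2+PBRM1. Its samples were well separated, with a 1.41-fold higher mean in Caki2+PBRM1 (log2 fold change 0.50, SE 0.038, limma adjusted p = 2.21e-11). TIMP1, a secreted inhibitor of most MMPs and of ADAM10, had counts of 684, 739 and 696 against 746, 756 and 770. The TIMP1 groups did not overlap, but the difference did not pass the test (log2 fold change 0.10, 95% interval -0.01 to 0.21, limma adjusted p = 0.165). TIMP4 was at 74.8, 70.9 and 76.7 against 83.4, 61.3 and 71.3, with overlapping groups (log2 fold change -0.05, interval -0.34 to 0.24; 0.06 without Caki2+PBRM1 B). TIMP3, the inhibitor with the broadest action on ADAMs and ADAMTSs, was close to the limit of detection, with 2 to 4 reads per Caki2+Vector sample and 4 to 6 per Caki2+PBRM1 sample. TIMP2 lies on chromosome 17 from 76849059 to 76921469 on the minus strand (GRCh37).

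MMP7 held nearly all of the MMP signal. MMP7, or matrilysin, is a small secreted protease of epithelial cells that cleaves matrix proteins and cell surface ligands. Its counts were 3842, 3691 and 3458 in Caki2+Vector and 5086, 4984 and 4860 in Caki2+PBRM1, with every Caki2+PBRM1 sample above every Caki2+Vector sample. The mean was 1.36-fold higher (log2 fold change 0.44, SE 0.039, limma adjusted p = 3.15e-10). MMP7 lies at one end of a run of 9 members on chromosome 11 (GRCh37, from 102391239 to 102826461, 435.2 kb, all on the minus strand), which also holds the collagenases MMP1, MMP8 and MMP13, the stromelysins MMP3 and MMP10, and MMP12, MMP20 and MMP27. MMP7 took 26943 reads over the 6 samples, and the other 8 genes of the run took 69 reads together, 58 of them on MMP1. MMP1, the interstitial collagenase, was at 6.6, 17.0 and 14.4 against 6.5, 3.6 and 9.2, with overlapping groups and too few counts to be tested.

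The promoters of MMP7 and of MMP10 are shown because they belong to genes of the same run with very different levels, and those of MMP15, MMP24 and ADAM23 because they belong to the 3 members with the largest log2 fold changes among those that passed. Each is the 250 bases before the transcription start (RefSeq, GRCh38.p14), written along the gene's strand. The MMP7 window is chr11:102530748-102530997 and the MMP10 window chr11:102780629-102780878, both on the minus strand. The MMP15 window is chr16:58025504-58025753, the MMP24 window chr20:35226440-35226689 and the ADAM23 window chr2:206443282-206443531, all on the plus strand. Capitals mark the AP-1 letters TGANTCA, which read the same on both strands, and the core of the hypoxia response element, ACGTG or GCGTG on either strand.
MMP7: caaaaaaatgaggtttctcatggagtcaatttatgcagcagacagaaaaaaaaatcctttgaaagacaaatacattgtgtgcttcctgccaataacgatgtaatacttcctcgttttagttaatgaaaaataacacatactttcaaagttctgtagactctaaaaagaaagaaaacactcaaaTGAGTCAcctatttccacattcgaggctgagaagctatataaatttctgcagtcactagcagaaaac
MMP10: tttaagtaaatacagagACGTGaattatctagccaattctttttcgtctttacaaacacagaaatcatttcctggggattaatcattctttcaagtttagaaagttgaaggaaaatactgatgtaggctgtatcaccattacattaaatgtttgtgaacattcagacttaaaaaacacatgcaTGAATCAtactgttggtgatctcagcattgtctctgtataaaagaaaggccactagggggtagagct
MMP15: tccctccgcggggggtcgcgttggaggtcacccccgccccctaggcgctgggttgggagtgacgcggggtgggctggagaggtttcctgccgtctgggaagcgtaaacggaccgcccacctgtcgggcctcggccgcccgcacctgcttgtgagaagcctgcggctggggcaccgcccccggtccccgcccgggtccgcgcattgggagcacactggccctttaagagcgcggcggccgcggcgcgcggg
MMP24: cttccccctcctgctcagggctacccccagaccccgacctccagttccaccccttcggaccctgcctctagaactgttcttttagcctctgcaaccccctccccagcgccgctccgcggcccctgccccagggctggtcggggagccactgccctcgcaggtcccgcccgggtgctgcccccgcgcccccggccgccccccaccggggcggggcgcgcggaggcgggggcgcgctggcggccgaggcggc
ADAM23: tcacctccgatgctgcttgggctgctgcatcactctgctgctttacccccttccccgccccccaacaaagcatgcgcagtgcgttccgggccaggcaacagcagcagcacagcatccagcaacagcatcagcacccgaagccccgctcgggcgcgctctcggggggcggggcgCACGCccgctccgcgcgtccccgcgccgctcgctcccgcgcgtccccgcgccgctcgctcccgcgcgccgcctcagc
Both MMP7 and MMP10 held the AP-1 letters 67 bases before the start, whereas MMP10 was at 0 to 2 reads per sample. The MMP7 and MMP10 windows had a GC content of 33.6% and 34.4%, and those of MMP15, MMP24 and ADAM23 had 74.8%, 77.6% and 73.6%. Promoters were found for 38 of the 67 members, and TIMP2, ADAM9, ADAM11, ADAMTS1, ADAMTS5 and ADAMTS16 were not among them. The AP-1 letters were in 4 of the 38 (10.5%: MMP7, MMP10, MMP20 and ADAMTS12) and in 6.6% of all 35116 promoter windows. The hypoxia response element core was in 19 of the 38 (50%) and in 43.2% of all windows, where the letters CACGTG hold the core on both strands. Members were counted with a single window per gene, whereas the shares of all windows were not reduced to a single window per gene. A match of letters is a description of the window and not a bound site.

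Of the 6 membrane-type MMPs, which are anchored to the cell surface and can activate other MMPs, 5 were tested and 2 were upregulated. MMP15 (MT2-MMP; chromosome 16, 58059658 to 58080805, plus strand, GRCh37) was at 110, 137.0 and 129 in Caki2+Vector and at 235.0, 215 and 243 in Caki2+PBRM1. The groups were far apart, with a 1.84-fold difference (log2 fold change 0.88, SE 0.1, limma adjusted p = 4.75e-08). MMP24 (MT5-MMP; chromosome 20, 33814493 to 33864801, plus strand), best known in neurons for its cleavage of N-cadherin, was at 78.6, 85.0 and 77.9 against 159, 153 and 170.4. Its mean was 2.0-fold higher in Caki2+PBRM1 (0.99, SE 0.112, limma adjusted p = 4.47e-08). An antisense gene, MMP24-AS1, overlaps MMP24 on the opposite strand, and whether counting used strand was not stated. MMP24-AS1 was at 166, 192 and 195 against 206, 213 and 212, and its difference of 0.19 did not pass the test (limma adjusted p = 0.111). MMP16, MMP17 and MMP25 did not pass the test, with log2 fold changes of -0.08, -0.22 and -0.16. MMP14 (MT1-MMP), the main activator of proMMP2, was at 7.6, 2.8 and 7.2 against 2.2, 0 and 4.2, too low to be tested. Among the gelatinases, which cleave type IV collagen of the basement membrane, MMP2 had at most 2 reads in a sample, and MMP9 was at 4.7, 10.4 and 13.2 against 9.7, 11.6 and 7.6, with overlapping groups. MMP28, or epilysin, was untested at 5.7, 5.7 and 4.8 against 9.7, 8.0 and 5.9.

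The ADAM family held the tested member with the largest log2 fold change. ADAM23, which lacks a working protease site and acts in cell adhesion as a partner of LGI1 and of an integrin, was at 70.1, 64.2 and 76.7 in Caki2+Vector and at 262, 267 and 267 in Caki2+PBRM1. The mean was 3.77-fold higher (log2 fold change 1.90, SE 0.104, limma adjusted p = 9.06e-15), and the Caki2+PBRM1 samples were nearly equal. ADAM23 lies on chromosome 2 from 207308256 to 207485851 on the plus strand (GRCh37). Its close relatives ADAM22 and ADAM11, which also lack a working protease site, are given beside it. ADAM22 did not pass the test (0.19, interval -0.11 to 0.49), and its samples overlapped at 55.7 to 73.8 against 70.4 to 83.6. ADAM11 was lower at low counts, with 20.8, 18.0 and 13.2 against 13.0, 8.0 and 7.6, and the gap between the groups was narrow (-0.81, SE 0.311, limma adjusted p = 0.0481). The ADAM11 call was lost without Caki2+Vector A (limma adjusted p = 0.157), Caki2+Vector B (0.123), Caki2+PBRM1 B (0.139) or Caki2+PBRM1 C (0.167).

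Among the ADAMs with a protease site, ADAM15 showed the largest rise. ADAM15, a membrane protease with an integrin-binding RGD motif, was at 419, 487 and 469.8 in Caki2+Vector and at 639, 651 and 620.2 in Caki2+PBRM1, with no overlap (1.39-fold, log2 fold change 0.47, SE 0.063, limma adjusted p = 7.76e-07). ADAM10 and ADAM17 are the chief sheddases of Notch, cadherins and EGF family ligands. ADAM10 rose 1.1-fold, from 2622, 2588 and 2523 to 2842, 2807 and 2835 (0.13, SE 0.038, limma adjusted p = 0.00794). For ADAM17, also called TACE, counts were 1451, 1461 and 1478 against 1419, 1355 and 1394, without overlap but short of the test (-0.08, interval -0.16 to 0.01, limma adjusted p = 0.209). ADAM9, another membrane sheddase, was at 6063, 5782 and 5555 against 5399, 5480 and 5210. This 0.92-fold change passed the test (-0.11, SE 0.037, limma adjusted p = 0.0204), but not without Caki2+PBRM1 A (limma adjusted p = 0.0716) or Caki2+PBRM1 C (0.158). ADAM12, known from myoblast fusion and for cleaving IGF-binding proteins, was at 1666, 1696 and 1740 against 1758, 1787 and 1827 and did not pass the test (0.07, interval -0.01 to 0.16, limma adjusted p = 0.192). ADAM32 was untested, at a mean of 2.3 against 3.5.

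**Figure D2:**
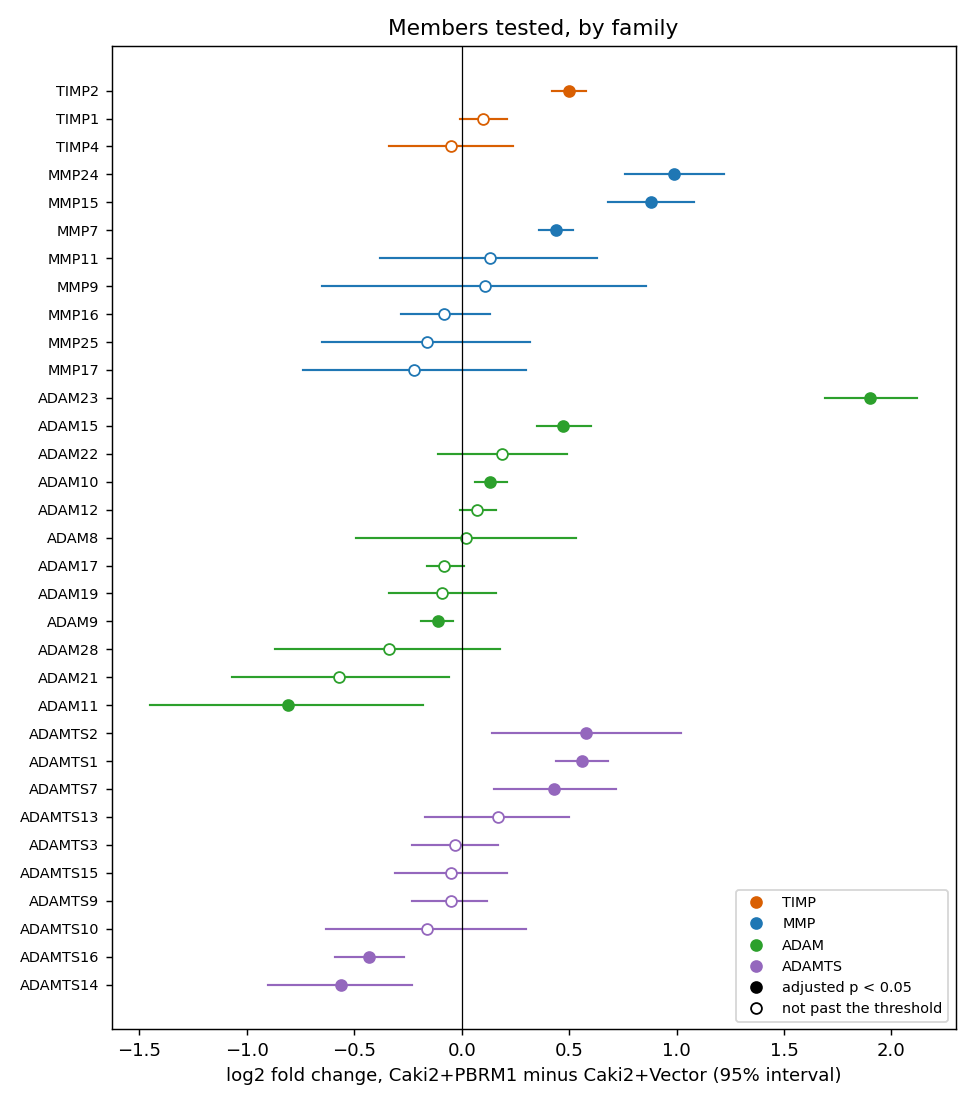
Log2 fold change (Caki2+PBRM1 minus Caki2+Vector, limma) of the 33 tested members, ordered within families, with 95% intervals and filled points for those that passed the test. Values ran from -0.81 for ADAM11 to 1.90 for ADAM23, and the intervals of weakly expressed members were wide.

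The ADAMTS genes are described by substrate class. Among the proteoglycanases, ADAMTS1, which cleaves aggrecan and versican, was at 674, 757 and 783 in Caki2+Vector and at 1024, 1099 and 1141 in Caki2+PBRM1. No sample overlapped, and the mean was 1.47-fold higher (log2 fold change 0.56, SE 0.057, limma adjusted p = 9.91e-09). ADAMTS5, a major aggrecanase, had 0 reads in all 3 Caki2+Vector samples and 6, 11 and 12 reads in Caki2+PBRM1. Against a floor of 3 reads over the Caki2+Vector group, its 29 reads correspond to 8.8-fold higher counts in Caki2+PBRM1. This value takes the 29 reads as exact and leaves out their counting error. ADAMTS5 lay below the filter on low counts. Without that filter, limma gave an adjusted p of 4.22e-08, and edgeR, added after the values of ADAMTS5 were seen, gave an adjusted p of 3.86e-07. ADAMTS1 and ADAMTS5 are neighbours on chromosome 21 (GRCh37, 28208074 to 28217728 and 28290241 to 28339407, both on the minus strand), 72.5 kb apart. The proteoglycanases ADAMTS9 and ADAMTS15 did not pass the test, with log2 fold changes of -0.05 for each gene. ADAMTS8 was untested at 6.6, 12.3 and 4.8 against 5.4, 8.0 and 2.5, and ADAMTS4 and ADAMTS20 had at most 3 reads in all.

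The procollagen N-propeptidases ADAMTS2, ADAMTS3 and ADAMTS14 trim fibrillar procollagens, and their counts went in different directions. ADAMTS14 was at 63.4, 64.2 and 62.3 in Caki2+Vector and at 35.7, 42.7 and 50.4 in Caki2+PBRM1, a 0.68-fold change without overlap (log2 fold change -0.56, SE 0.164, limma adjusted p = 0.00965). ADAMTS2 was at 18.9, 29.3 and 22.8 against 31.4, 39.1 and 36.1, a rise with a narrow gap between the groups (0.58, SE 0.216, limma adjusted p = 0.0413). For ADAMTS3 the groups overlapped (-0.03, interval -0.23 to 0.17). The ADAMTS14 call was lost without Caki2+PBRM1 A (limma adjusted p = 0.0672). The ADAMTS2 call was lost without Caki2+Vector A (0.141) or C (0.0732) and without Caki2+PBRM1 A (0.0517), B (0.152) or C (0.117).

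ADAMTS16, an enzyme linked to kidney development and blood pressure, was the member with the clearest fall. It was at 403, 386 and 359.6 in Caki2+Vector and at 257, 313 and 283 in Caki2+PBRM1, with no overlap (0.74-fold, log2 fold change -0.43, SE 0.078, limma adjusted p = 7.96e-05). ADAMTS7, which cleaves the cartilage matrix protein COMP, was at 72.9, 66.1 and 59.9 against 98.6, 94.2 and 77.2 (1.36-fold, 0.43, SE 0.14, limma adjusted p = 0.0194). Its call was lost without Caki2+Vector C (limma adjusted p = 0.0734), Caki2+PBRM1 A (0.108) or Caki2+PBRM1 B (0.0844). ADAMTS13, the von Willebrand factor protease, and ADAMTS10 did not pass the test (0.17 and -0.16). ADAMTS6 and ADAMTS18 were untested, at means of 3.8 against 3.9 for ADAMTS6 and 2.4 against 4.9 for ADAMTS18.

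Of the 14 members that passed, 9 kept their call under all 17 alternative settings: MMP7, MMP15, MMP24, TIMP2, ADAM10, ADAM15, ADAM23 and ADAMTS1 were higher, and ADAMTS16 was lower. The 19 tested members that did not pass had log2 fold changes from -0.57 for ADAM21 to 0.19 for ADAM22. Of these, 12 had a mean normalized count under 100, and the median SE of the 19 was 0.146, compared with 0.083 for all genes tested.

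Levels of different genes were compared as normalized counts per kilobase of the canonical transcript. On this scale MMP7 was the highest member at 3274.0 ± 172.8 (SD, n = 3) with the vector and 4447.3 ± 100.8 with PBRM1, followed by ADAM9 at 1410.5 ± 61.8 and 1304.2 ± 33.6. TIMP1 at 918 ± 37.6 was above TIMP2 at 627 ± 13.2 in Caki2+Vector, and in Caki2+PBRM1 the values were 985 ± 15.3 and 886 ± 17.6. All other members were at most at 333.2 per kilobase in both groups, with ADAM17, ADAM10, ADAM12, ADAM15 and ADAMTS1 the next highest. ADAM23 rose from 11.1 to 41.9 per kilobase and so stayed far below the abundant sheddases.

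**Figure D3:**
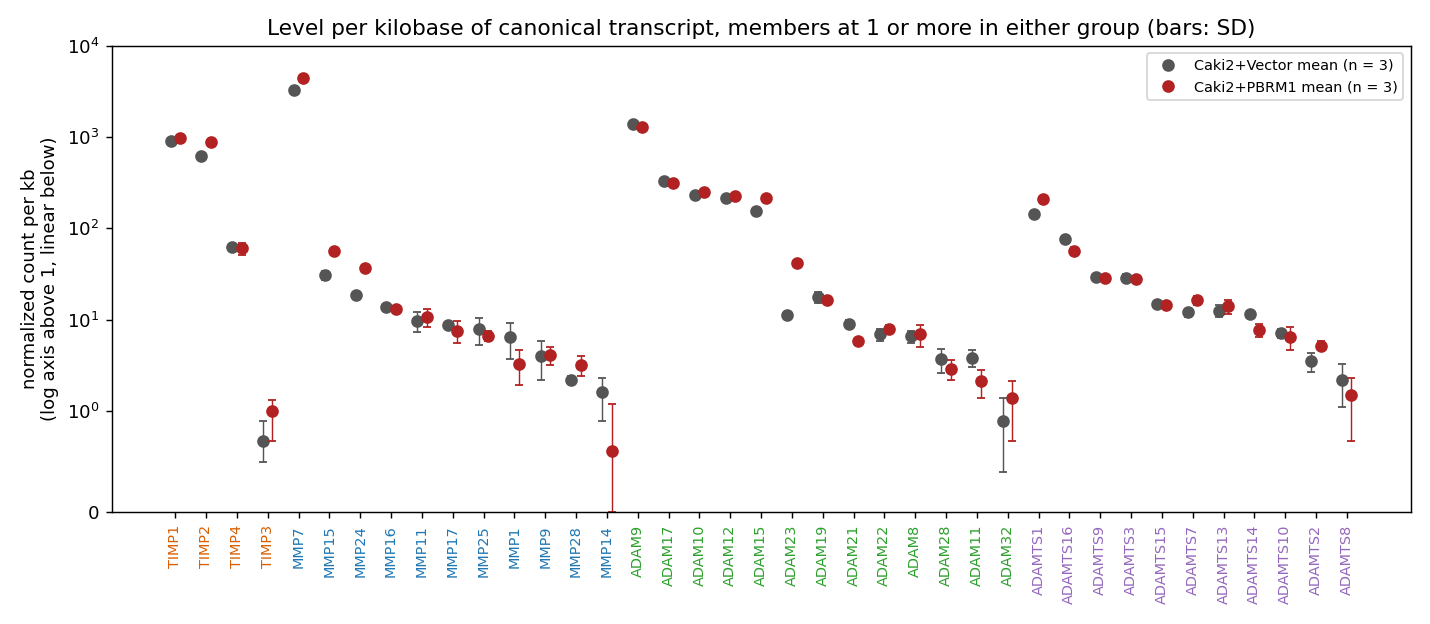
Mean normalized count per kilobase of canonical transcript (log axis above 1, linear below) for members at 1 or more in either group, with SD bars (n = 3 per group). MMP7, ADAM9, TIMP1 and TIMP2 stand above the other members in both groups.

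Proteases and inhibitors were then set against each other as sums per kilobase over all members of a family. These sums were described without a test. The MMP sum was 3380.5 ± 169.1 with the vector and 4591.4 ± 99.2 with PBRM1, a 1.36-fold difference, and MMP7 made up 96.6% to 97.2% of it in each sample. The TIMP sum was 1608.5 ± 28.6 and 1932.3 ± 4.5 (1.2-fold), with TIMP1 at 50.3% to 58.7%. The ADAM sum was 2405.0 ± 47.4 and 2402.0 ± 30.4, with overlapping groups, and the ADAMTS sum was 342.3 ± 6.9 and 392 ± 20.5 (1.15-fold). The log2 ratio of MMP to TIMP sums was 1.16, 1.06 and 0.99 in Caki2+Vector and 1.28, 1.25 and 1.22 in Caki2+PBRM1, so the groups did not overlap and the means differed by 0.18. This difference was 0.04 when counts were not divided by length and -0.02 when the most abundant member of each family was left out. The log2 ratio of all proteases to TIMPs averaged 1.93 in both groups, which overlapped, but the difference between groups was -0.26 without division by length and -0.33 without the most abundant members. The balance between transcripts of proteases and inhibitors thus had no direction that held on each of these scales.

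**Figure D4:**
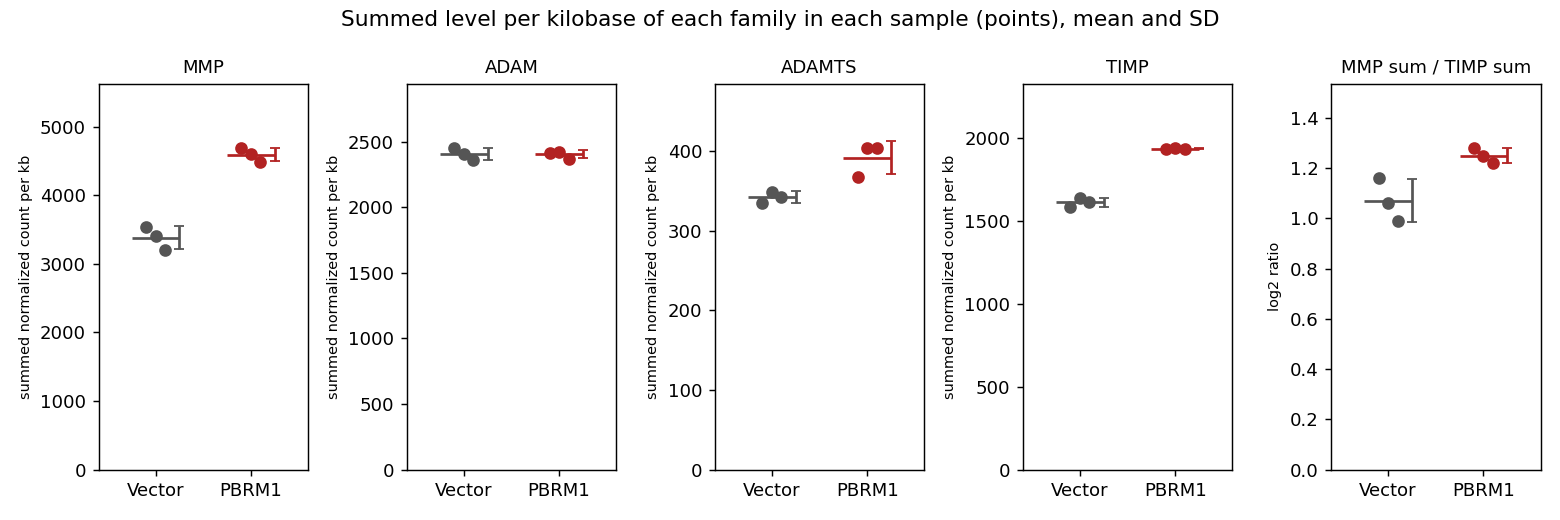
Sums of normalized counts per kilobase by family and the log2 ratio of the MMP to the TIMP sum, with 1 point per sample, a line at each group's mean and an error bar of 1 SD (n = 3 per group). The MMP and TIMP sums of Caki2+PBRM1 lie above those of Caki2+Vector, the ADAM sums overlap, and the log2 ratio goes from 0.99 to 1.16 in Caki2+Vector and from 1.22 to 1.28 in Caki2+PBRM1.

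Genes that activate, inhibit, clear or direct these proteases were counted from fixed lists, which were chosen with earlier results of these data known. Among all 13303 genes tested, 16.2% were higher and 13.0% lower in Caki2+PBRM1, and the counts of each list stand beside these shares. Among 18 pericellular regulators, 14 were tested, 6 were upregulated and 1 was downregulated, with a median log2 fold change of 0.15. SPOCK3, 1 of the 6, was at 0.9, 2.8 and 1.2 in Caki2+Vector and 11.9, 14.2 and 10.9 in Caki2+PBRM1. It reached the filter on low counts only through Caki2+PBRM1, so it could be called only as higher. SPOCK3 is named after its value was seen. Thrombospondin-1 (THBS1), a matrix protein that binds MMP2 and MMP9, rose from 883 ± 23.5 to 2074.9 ± 68.8 (SD, n = 3; log2 fold change 1.23, SE 0.045, limma adjusted p = 8.07e-19). LRP1, the endocytic receptor that clears several MMPs, ADAMTSs and their complexes with TIMPs, rose from 1486.7 ± 95.3 to 2490.2 ± 67.2 (0.75, SE 0.046, limma adjusted p = 1.41e-13). FURIN, the convertase that activates membrane-type MMPs, ADAMs and ADAMTSs, rose from 495 ± 45.1 to 727 ± 27.4 (0.56, SE 0.064, limma adjusted p = 6.61e-08). The other convertase gene that passed the test, PCSK5, fell by 0.21 and is named after its value was seen.

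The 10 partners of ADAM10 and ADAM17 were all tested, with 4 upregulated, 1 downregulated and a median of 0.15 (all genes tested: 16.2% higher and 13.0% lower). Several of them are tetraspanins of the TspanC8 group, which carry ADAM10 to the cell surface and steer its choice of substrate. TSPAN5 was at 137, 133 and 125 in Caki2+Vector and at 367, 325 and 325 in Caki2+PBRM1 (log2 fold change 1.36, SE 0.087, limma adjusted p = 3.45e-13). TSPAN15, of the same group, was at 429, 420.4 and 413.5 against 223, 256 and 270.3 (-0.75, SE 0.077, limma adjusted p = 5.7e-09). TSPAN5 and TSPAN15 were thus changed in opposite directions, by far more than ADAM10 itself. RHBDF1, an inactive rhomboid that carries ADAM17 through the secretory pathway, rose by 0.26 (SE 0.08, limma adjusted p = 0.0139). The remaining 2 that rose, TSPAN33 (0.20) and PDIA6 (0.16), are named after their values were seen.

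Of 7 genes related to ADAMTSs but without a protease domain, 4 were tested, with 2 higher and 2 lower. For this list and the next, the shares of all genes tested were again 16.2% higher and 13.0% lower. ADAMTSL4, a binding partner of fibrillin-1, was at 68.2, 70.9 and 65.9 against 30.3, 38.2 and 42.0, with no overlap (log2 fold change -0.89, SE 0.167, limma adjusted p = 0.000137). ADAMTSL3 fell by 0.50 (limma adjusted p = 0.0121), and papilin (PAPLN) rose by 0.26 (limma adjusted p = 0.00609), as did THSD4 by 0.17, a gene named after its value was seen. Of 11 other metzincins and their kin, 4 were tested and 2 rose. These were PAPPA, a protease of IGF-binding proteins, from 84.6 ± 6.3 to 111 ± 13.3 (0.38, limma adjusted p = 0.0205), and TLL2, a tolloid-like protease, from 31.0 ± 5.5 to 60.3 ± 5.6 (0.95, limma adjusted p = 0.000146), the latter named after its value was seen.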

How the data were processed

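RNA-seq of 6 Caki2 samples was used (3 Caki2+Vector, 3 Caki2+PBRM1). According to the methods and the labels, the authors removed adapters, poor reads and rRNA reads, aligned to hg19 with STAR, counted reads on 25369 genes with htseq-count and normalized with DESeq2. The deposited signal values are read counts that the authors divided by a size factor per sample, not by gene length. All values (100.0%) lay within 0.01 of a whole multiple of 1 read, so reads were recovered. Totals were 7312955 to 10835355 reads per sample, and SEs of log2 fold changes had a median of 0.083. Intervals and floors cover counting error only where they rest on counts.

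The 13303 genes with normalized counts of 10 or more in 3 or more samples were tested with limma 3.58.1 (trend, robust) in R 4.3.3 on log2(normalized count + 1), which understates changes of low genes, and p-values were adjusted by Benjamini-Hochberg over all of them. Reads were also tested with edgeR 4.0.16 quasi-likelihood, DESeq2 1.42.0 and voom, and pseudocounts of 0.5 and 4, other filters, TMM and quantile normalization, a replicate block, a stricter threshold and leaving out each replicate were tried. The script was tested on simulated data. Fold changes in words are ratios of group means. Gene positions and lengths came from GENCODE v44 on GRCh37 (67 of 67 members matched), and promoters from RefSeq. Members and lists were chosen with earlier results of these data known. Named were PBRM1, the TIMPs, all members that passed, tested members with a mean of at least 500, untested members with a mean of at least 3 in either group, and, in each related list, the 3 largest changes among genes that passed the test with a mean of at least 50. Other members of the same class are named as counterparts, chosen after their values were seen.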

Additional observations from a re-analysis of the deposited data

How the results depend on the processing

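Of the 19 members that did not pass, 12 had a mean normalized count under 100. The 10 higher and 4 lower members became 8 and 1 with DESeq2, 8 and 2 at an adjusted p under 0.01, 9 and 5 after quantile normalization, and 10 and 4 with edgeR and with voom on the recovered reads. Leaving out each replicate gave 8 to 10 higher and 2 to 4 lower members, with 2 lower without Caki2+PBRM1 A and 2 lower without Caki2+PBRM1 C. ADAM9 (adjusted p = 0.0567), ADAM11 (0.184), ADAMTS2 (0.195), ADAMTS7 (0.114) and ADAMTS14 (0.0815) were not called by DESeq2. ADAM11 (0.0568) and ADAMTS2 (0.0553) were not called without a filter on low values, and ADAMTS2 (0.0856) not after quantile normalization. The cause of these losses was not tested. TIMP4, never called, ranged from -0.16 to 0.06 when each replicate was left out and changed sign without Caki2+PBRM1 B.

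The 26 higher and 6 lower genes of the related lists ranged from 22 to 26 and from 4 to 8 over the alternatives. The 26 include SPOCK3, which reached the filter on low counts only through Caki2+PBRM1. PBRM1 stayed between 3.72 and 3.8 on the log2 scale. The difference in the log2 ratio of MMP to TIMP sums (0.18) was 0.04 without division by length, -0.02 without the most abundant member of each family, 0.18 with the length of all annotated exons, a setting added after the data were seen, and 0.14 to 0.22 when each replicate was left out. That of all proteases to TIMPs (0.00) was -0.26, -0.33 and 0.05 in the same order, and -0.02 to 0.04. Samples with the same replicate letter did not deviate together (correlations of -0.008 to 0.014), so the letters were not taken as pairs. A replicate block left 10 members higher and 4 lower, and changed no call among the 14 members that passed or TIMP1, TIMP4, ADAM12 and ADAM17, and 26 and 6 genes of the related lists passed under it.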

Other observations

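Substrates of these proteases were counted from 2 further fixed lists, also chosen with earlier results of these data known. Among all genes tested, 16.2% were higher and 13.0% lower in Caki2+PBRM1. Of 26 proteins known to be shed by ADAMs, 22 were tested, 8 were upregulated and 2 were downregulated, with a median log2 fold change of 0.12. L1CAM, an adhesion molecule shed by ADAM10 and ADAM17, was at 638, 734 and 702 in Caki2+Vector and at 1248, 1287 and 1222 in Caki2+PBRM1 (0.86, SE 0.054, limma adjusted p = 1.89e-13). The receptors NOTCH2 and NOTCH1, cleaved by ADAM10 upon ligand binding, rose by 0.47 (limma adjusted p = 1.99e-11) and 0.45 (limma adjusted p = 3.27e-05). EREG, an EGF receptor ligand, fell by 0.25 and CX3CL1, a membrane chemokine, fell by 0.17, both named after their values were seen.

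Of 14 proteoglycans and matrix proteins cleaved or bound by ADAMTSs, 5 were tested and 4 were upregulated, with a median of 1.01. Over all genes tested the median was -0.004, and 16.2% were higher. Because the list was chosen with earlier results of these data known, its count and median only describe the listed genes. Fibrillin-1 (FBN1), the main protein of microfibrils, was at 576.5, 564 and 587 in Caki2+Vector and at 2646, 2741 and 2603 in Caki2+PBRM1, a 4.62-fold difference (log2 fold change 2.21, SE 0.046, limma adjusted p = 1.8e-25). Reelin (RELN), which ADAMTS enzymes can cleave, rose by 1.23 (limma adjusted p = 9.59e-19), and LTBP1, which anchors latent TGF-beta to microfibrils, rose by 1.01 (limma adjusted p = 7.53e-07). Versican (VCAN), a substrate of ADAMTS1 and ADAMTS5, was at 6212, 6125 and 6236 against 7604, 7711 and 7456 (0.29, limma adjusted p = 3.22e-08) and is named after its value was seen. RNA of a substrate does not show how much of its protein was cleaved.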
